A study of Mus musculus with 10 samples.

Results

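Transcription factor genes that shape myeloid cells and microglia were followed through CD45+ immune cells of the mouse brain. The 9 genes are *Spi1*, *Cebpa*, *Cebpb*, *Irf8*, *Mef2a*, *Mef2c*, *Sall1*, *Sall3* and *Runx1*, which were taken by name. All 9 were present among the 31053 genes of the count matrix. The study asked whether the inflammasome sensor Nlrp3 shapes microglia in the healthy brain and in the presence of β-amyloid. For this, CD45+ cells were sorted from dissociated whole brains, and the RNA of single cells was captured from its 3′ end in droplets (10x Genomics). WT and Nlrp3KO brains were taken at the ages of 3, 6 and 9 months, those of APP/PS1 and Nlrp3KO APP/PS1 mice at the ages of 3 and 9 months. Each of these 10 groups was 1 library, made from the pooled cells of 3 mice (2 males and 1 female).

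The Nlrp3KO mice lack Nlrp3 in all cells of the body, not in microglia alone. APP/PS1 mice carry transgenes for mutant human amyloid precursor protein (APP) and presenilin-1 (PS1), which are expressed in neurons of the central nervous system. All groups came from a cross of both lines on the C57BL/6 background, and all brains were dissociated in the presence of actinomycin D, a blocker of transcription. The libraries of 1 age also formed 1 batch in the deposited annotation, and age and batch therefore cannot be told apart. WT and APP/PS1 together are called Nlrp3WT.

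As background, PU.1 (encoded by *Spi1*) opens chromatin at macrophage enhancers and binds there together with partners such as IRF8, C/EBP proteins, RUNX1 and MEF2 proteins. Brain-resident microglia add factors of their own to this shared myeloid set. The zinc finger repressor SALL1 is the best known of them and helps to keep up microglial identity, whereas blood-derived monocytes and border-associated macrophages (BAM), which line the meninges and vessels, largely lack it.

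Between 2223 and 9112 cells per library were annotated, 45472 in all, of which 40547 were microglia. The microglia of a library held 9357431 to 35107144 UMIs, the counts of captured RNA molecules after removal of copies made by PCR. Levels are given as CPM, in which the UMIs of a gene were summed over the cells and scaled to a common total. *Nlrp3* had between 34.4 and 53.7 CPM in the microglia of the 5 Nlrp3WT libraries and no UMI in those of the 5 Nlrp3KO libraries. The microglial marker *P2ry12* had 3354 CPM in microglia and 237 CPM in T cells at 3 and 6 months, and *Tmem119* had 1609 and 136 CPM. The study identified microglia by signature genes, so these values are no independent check of the label. Summed over 6 microglial markers, microglia had 23304 CPM and BAM 2887 CPM. BAM annotated as *Lyve1*+ had 3893 CPM, the most among the other types. Of all cells, 1.08% had a barcode sequence that also occurred in another library.

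In microglia, 6 of the 9 genes varied less over the 10 libraries than the median gene, while *Sall1*, *Cebpa* and *Cebpb* varied more. The ratio of the highest to the lowest library was 1.12 for *Runx1*, 1.14 for *Mef2a*, 1.16 for *Sall3*, 1.20 for *Irf8*, 1.22 for *Mef2c*, 1.25 for *Spi1* and 1.48 for *Sall1*. It was 3.92 for *Cebpa* and 29.0 for *Cebpb*. The coefficient of variation over the 10 libraries was 3.83% for *Mef2a*, 3.89% for *Runx1*, 5.53% for *Irf8*, 5.54% for *Sall3*, 6.83% for *Mef2c* and 7.26% for *Spi1*, against a median of 9.26% over the 8235 genes with at least 10 CPM on average. It was 13.8% for *Sall1*, and 78.4% of these genes varied less. It was 31.4% for *Cebpa* and 71.6% for *Cebpb*, and 97.4% and 99.7% of these genes varied less. That *Cebpb* was low in some of the libraries was known when the 9 genes were chosen.

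**Figure D1:**
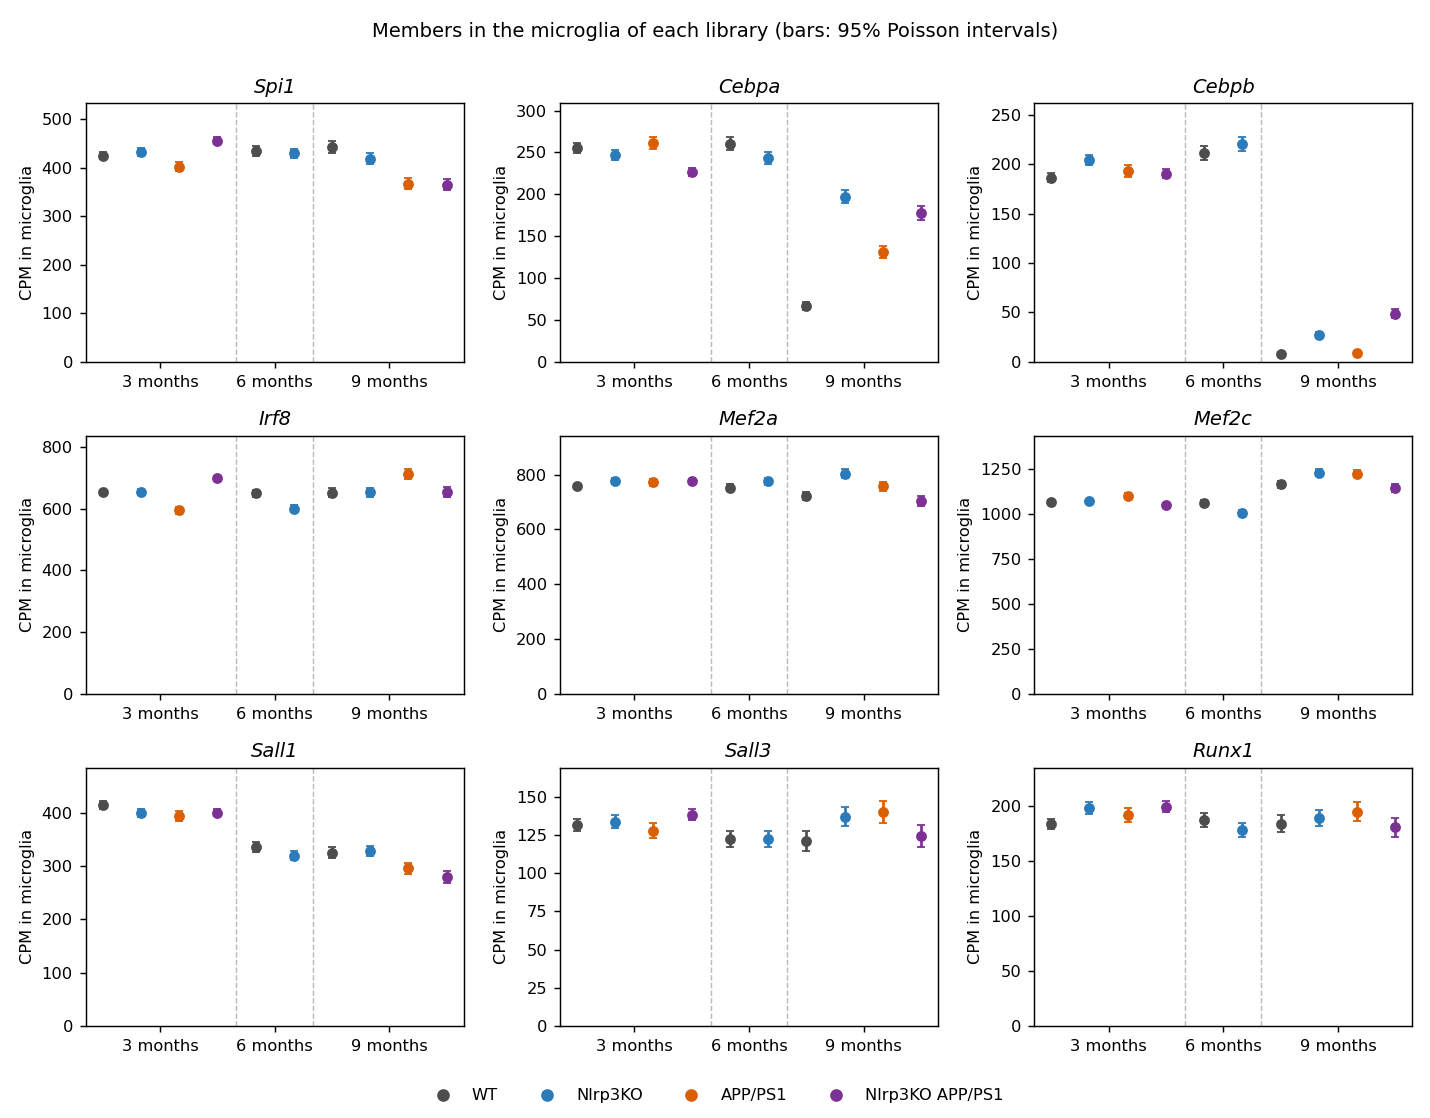
Level of each gene (CPM, y axis from 0) in the microglia of the 10 libraries, ordered by age on the x axis and coloured by genotype, with 95% exact Poisson intervals that cover counting error only. *Cebpb* lay between 186 and 220 CPM in the 6 libraries of 3 and 6 months and between 7.58 and 48.5 CPM in the 4 libraries of 9 months, *Cebpa* was also lower in all 4, *Sall1* was higher in the 4 libraries of 3 months, and the other 6 genes varied less than the median gene.

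*Spi1* was a shared myeloid gene with little change between libraries. Its level in microglia was 425, 432, 403 and 456 CPM in 3-month-old mice (in the order WT, Nlrp3KO, APP/PS1 and Nlrp3KO APP/PS1), 434 and 430 CPM at 6 months (WT and Nlrp3KO), and 443, 419, 367 and 365 CPM at 9 months. The lowest 2 values were those of the APP/PS1 backgrounds at 9 months. In HM, the homeostatic microglia of the annotation, these libraries had 413 and 397 CPM, against 459 and 431 CPM in WT and Nlrp3KO mice of that age and 408 CPM in APP/PS1 mice of 3 months, so that within HM they were not the lowest 2.

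Across cell types, *Spi1* was highest in nonclassical monocytes (Mono NC) with 859 CPM and in monocytes (Mono) with 565 CPM. Dendritic cells of type cDC2 (450 CPM), neutrophils (438 CPM), microglia (425 CPM) and BAM (408 CPM) followed, and their libraries overlapped, with ranges of 405 to 479 CPM, 394 to 491 CPM, 365 to 456 CPM and 350 to 491 CPM in that order. B cells had 122 CPM and plasmacytoid dendritic cells (pDC) 86.0 CPM. T cells had 19.5 CPM and NKT cells 1.71 CPM. In T cells, a lineage that should lack *Spi1*, the level was 38.7 CPM in the libraries of 3 and 6 months and 4.16 CPM in those of 9 months, 8.95% and 1.04% of the level in microglia.

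*Irf8* encodes an interferon regulatory factor that is needed for several dendritic cell and monocyte lineages and acts with PU.1 in microglia. At 3 months it had 653, 654, 594 and 698 CPM in microglia, at 6 months 649 and 600 CPM, and at 9 months 651, 653, 712 and 652 CPM, in the same order of genotypes. No age or genotype lay apart from the rest. Its highest level was in pDC, with 3639 CPM (95% exact Poisson interval 3517 to 3763, 102 cells), which was 5.57-fold over microglia. The 9 cells annotated as cDC1, too few to be counted among the 13 cell types of at least 75 cells, had 2105 CPM. Microglia had 653 CPM, and BAM (328 CPM), B cells (326 CPM) and natural killer cells (315 CPM) came next with library ranges that overlapped (268 to 395 CPM, 233 to 438 CPM and 285 to 405 CPM).

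*Runx1*, a Runt-domain factor of early blood development that is also active in young microglia, varied little. It had 184, 198, 192 and 199 CPM at 3 months, 187 and 178 CPM at 6 months and 184, 189, 195 and 181 CPM at 9 months. Microglia (190 CPM), BAM (180 CPM) and *Lyve1*+ BAM (178 CPM) did not differ beyond the spread of their libraries, which reached from 178 to 199 CPM, from 132 to 245 CPM and from 141 to 249 CPM. cDC2 had 138 CPM, nonclassical monocytes 115 CPM, and T cells, natural killer cells, NKT cells and type 2 innate lymphoid cells (ILC2) between 55.7 and 83.4 CPM. In T cells the level kept to 65.9 CPM at 3 and 6 months and 47.6 CPM at 9 months, 34.5% and 25.4% of the level in microglia, which was a larger share than that of *Spi1* in the same cells. The highest level in any annotated group was in the 28 mast cells and basophils, with 395 CPM (95% exact Poisson interval 316 to 488).

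The MADS-box factors MEF2A and MEF2C bind at microglial enhancers, and MEF2C has been linked to the restraint of inflammatory responses in these cells. *Mef2a* had 758, 778, 772 and 775 CPM at 3 months, 752 and 776 CPM at 6 months and 722, 804, 757 and 703 CPM at 9 months. *Mef2c* had 1067, 1069, 1100 and 1050 CPM at 3 months, 1058 and 1004 CPM at 6 months and 1164, 1227, 1222 and 1144 CPM at 9 months. For *Mef2c*, all 4 libraries of 9 months lay above all 6 earlier ones, the single gene of the 9 for which this was so, and 3.16% of the 8235 genes showed that order. The difference was small, with a mean of 1189 CPM at 9 months (SD 41.8, n = 4) and 1058 CPM earlier (SD 31.7, n = 6).

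Both genes were highest in microglia. *Mef2c* had 1090 CPM there, 808 CPM in *Lyve1*+ BAM, 627 CPM in pDC, 532 CPM in B cells and 501 CPM in BAM. The library ranges of microglia (1004 to 1227 CPM) and *Lyve1*+ BAM (716 to 874 CPM) did not overlap, whereas B cells (369 to 761 CPM) and BAM (438 to 647 CPM) overlapped with each other. Monocytes (137 CPM), neutrophils (76.2 CPM) and T cells (49.2 CPM) had little. *Mef2a* was spread more evenly, with 765 CPM in microglia, 441 CPM in nonclassical monocytes, 398 CPM in *Lyve1*+ BAM, 360 CPM in BAM and 110 CPM in T cells, where it kept to 18.0% (3 and 6 months) and 11.6% (9 months) of its level in microglia.

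*Sall1* and *Sall3*, related zinc finger genes, separated microglia from the other 12 cell types of at least 75 cells. *Sall1* had 367 CPM in microglia and between 0.855 CPM (NKT cells) and 33.1 CPM (natural killer cells) in the other 12, and *Sall3* had 131 CPM in microglia and between 0 and 9.70 CPM elsewhere. Microglia were 11.1-fold over natural killer cells for *Sall1* and 13.5-fold over B cells for *Sall3*, the next highest type in each case. The 9 cells annotated as epithelial, too few to be counted among these types, had 168 CPM of *Sall1* (95% exact Poisson interval 76.9 to 319, 9 UMIs) and 74.7 CPM of *Sall3* (20.4 to 191, 4 UMIs). BAM, the other resident macrophages, had 13.7 CPM of *Sall1* and 2.32 CPM of *Sall3*. After thinning of each cell to 1500 UMIs, 41.8% of microglia, 1.66% of BAM and 1.001% of T cells had a *Sall1* UMI, and without thinning these shares were 77.6%, 4.69% and 4.69% at a median of 4506, 6154 and 5810 UMIs per cell.

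The low *Sall1* level outside microglia moved with that of other microglial genes. In T cells *Sall1* was at 8.25% of its microglial level in the libraries of 3 and 6 months and at 0.616% in those of 9 months. *P2ry12* was at 7.07% and 0.630% there, and *Tmem119* at 8.44% and 0.774%, so that the 3 genes moved alike. In the sum of all cells that are not microglia, *Sall1* had 24.5 CPM at 3 and 6 months and 3.39 CPM at 9 months. Natural killer cells kept more at 9 months than T cells did, with 15.5 CPM from 14 UMIs in 143 cells.

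Within microglia, *Sall1* differed between the ages, which are also the batches, and little between the genotypes. It had 414, 399, 393 and 399 CPM at 3 months, 336 and 319 CPM at 6 months and 325, 328, 296 and 279 CPM at 9 months. All 4 libraries of 3 months lay above all 6 later ones, which held for 23.2% of the 8235 genes and for 1 of the 9, and the reverse held for 4.32% of the genes and for none of the 9. In HM alone the order was the same, with 414 to 431 CPM at 3 months, 341 and 356 CPM at 6 months and 335 to 354 CPM at 9 months. *Sall3* had 131, 134, 128 and 138 CPM at 3 months, 122 and 122 CPM at 6 months and 121, 137, 140 and 124 CPM at 9 months, and its ages overlapped.

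**Figure D2:**
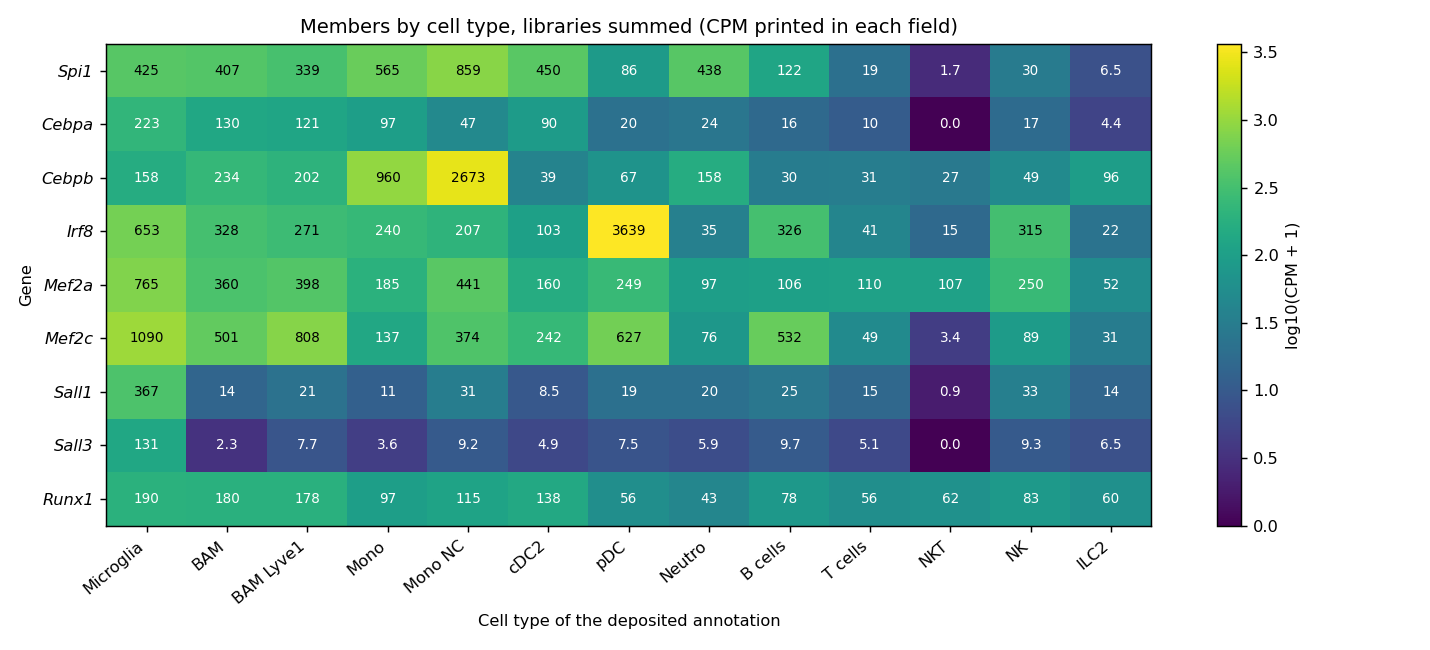
Level of each gene (rows) in the 13 cell types of at least 75 cells (columns), with the UMIs of the 10 libraries summed. Colour shows log10(CPM + 1) and each field holds the CPM. *Sall1* and *Sall3* stand out in microglia (367 and 131 CPM), *Irf8* in pDC (3639 CPM) and *Cebpb* in nonclassical monocytes (2673 CPM), where the *Cebpb* row mixes ages that differ.

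Of the 9 genes, 6 (*Cebpa*, *Mef2a*, *Mef2c*, *Sall1*, *Sall3* and *Runx1*) had their highest level in microglia among the 13 cell types, as did 22.0% of the 8321 genes with at least 10 CPM on average over them. The cell types are clusters of the same cells, and no test was made between them.

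*Cebpa* and *Cebpb* encode C/EBPα and C/EBPβ, leucine zipper factors of the granulocyte and monocyte lineages. C/EBPβ also drives inflammatory genes in macrophages and is needed for nonclassical monocytes. Both genes depended so much on the libraries of 9 months that their cell types are best read per age. At 3 and 6 months, among the types of at least 75 cells, *Cebpb* was highest in nonclassical monocytes with 3125 CPM and in monocytes with 1076 CPM, followed by BAM (306 CPM), *Lyve1*+ BAM (264 CPM), microglia (198 CPM), neutrophils (168 CPM) and ILC2 (123.5 CPM). Of the smaller groups, 48 cells annotated as precursors had 444 CPM and 26 mast cells and basophils 384 CPM. T cells had 64.6 CPM at these ages, 32.6% of the microglial level and thus more than the 8.95% of *Spi1*.

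For *Cebpa* at 3 and 6 months, microglia had 247 CPM, BAM 147 CPM, *Lyve1*+ BAM 137 CPM, cDC2 106 CPM, monocytes 98.6 CPM and nonclassical monocytes 44.5 CPM. The 28 mast cells and basophils, over all ages, had 740 CPM (95% exact Poisson interval 630 to 864). The 2 genes thus took opposite orders in the monocytes: *Cebpb* was higher in nonclassical than in other monocytes, and *Cebpa* was lower. T cells had *Cebpa* at 8.10% of the microglial level, the share at which the microglial genes stood.

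In microglia, *Cebpb* had 186, 204, 193 and 190 CPM at 3 months, 211 and 220 CPM at 6 months and 7.58, 27.3, 9.43 and 48.5 CPM at 9 months (WT, Nlrp3KO, APP/PS1 and Nlrp3KO APP/PS1). All 4 libraries of 9 months lay below all others, and the mean was 8.65-fold lower, at 23.2 CPM (SD 19.1, n = 4) against 201 CPM (SD 13.2, n = 6). On the scale of log2(CPM + 1) the mean difference between 9 months and earlier was -3.42, the lowest of the 8235 genes, whose median was -0.09. The low *Cebpb* level in the Nlrp3WT libraries of 9 months was known when the genes were chosen, and this rank is thus no independent support.

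*Cebpa* had 255, 247, 261 and 226 CPM at 3 months, 260 and 243 CPM at 6 months, and at 9 months 66.6, 197, 131 and 178 CPM. Its mean was 143 CPM at 9 months (SD 58.1, n = 4) and 249 CPM earlier (SD 13.2, n = 6), a log2 difference of -0.90, which ranked 75 from the lowest. So 2 of the 9 genes were lower in every library of 9 months than in every earlier one, as were 13.2% of the 8235 genes. Age and batch cannot be told apart here.

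At 9 months, the *Cebpb* level was lower than at 3 and 6 months in microglia and the other 12 cell types, with pDC resting on 1 library. The ratio lay between 5.86 (neutrophils) and 15.5 (NKT cells) in 11 of the 13 types and was 1.91 in pDC, while B cells held no UMI. In pDC the Nlrp3KO APP/PS1 library of 3 months set the direction: without it, a step added after the data were seen, pDC had 22.3 CPM earlier and 38.6 CPM at 9 months, and the level was lower at 9 months in 12 of 13 types. With the WT library of 9 months left out instead, pDC had 73.5 CPM earlier and 9.05 CPM at 9 months. With all libraries, 2.31% of the 8321 genes were lower at 9 months in all 13 types, and the other 8 genes in 8 (*Mef2c*) to 12 (*Sall1*) of them. In T cells, where *Cebpb* was 14.9-fold lower, *Sall1* was 16.7-fold, *Sall3* 9.84-fold, *Cebpa* 9.63-fold, *Spi1* 9.31-fold and *Mef2c* 8.04-fold lower. The lower level in T cells was thus shared by *Spi1*, *Sall1* and *Sall3*, whose libraries of 9 months overlapped the earlier ones in microglia, and the part of such a shared difference in the *Cebpb* values of T cells and other lymphocytes was not tested. In nonclassical monocytes and BAM, by contrast, *Spi1* had 853 and 414 CPM earlier and 887 and 390 CPM at 9 months. That *Cebpb* was low across cell types in the Nlrp3WT libraries of 9 months was known when the 9 genes were chosen. The count of types is thus no independent support, and the values of *Cebpb* by genotype are a description. In nonclassical monocytes it had 341 CPM in Nlrp3WT and 1328 CPM in Nlrp3KO libraries (95% exact Poisson intervals 246 to 461 and 935 to 1830, from 20 and 5 cells), against 3125 CPM earlier. In BAM it had 15.9 CPM in Nlrp3WT and 64.9 CPM in Nlrp3KO libraries (intervals 7.96 to 28.5 and 47.5 to 86.6, from 93 and 90 cells), against 306 CPM earlier. These 2 ratios were 3.89 and 4.07, and that of microglia was 4.27 (8.49 and 36.2 CPM). Other types had ratios from 0 (pDC, 7 and 0 UMIs) to 14.0 (*Lyve1*+ BAM, 1 and 10 UMIs).

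In *Lyve1*+ BAM it had 3.07 CPM from 1 UMI in Nlrp3WT and 42.9 CPM from 10 UMIs in Nlrp3KO libraries. The intervals of these sums (0.0777 to 17.1 and 20.6 to 78.8) did not overlap. Of the 10 UMIs, 9 came from the Nlrp3KO APP/PS1 library (57.0 CPM, 26.0 to 108), and the Nlrp3KO library had 1 (13.3 CPM, 0.336 to 74.0). Taken by library, both of these intervals overlapped those of WT (0 to 29.6) and APP/PS1 (0.126 to 27.7). The intervals of the sums of both genotypes overlapped in the other types, apart from neutrophils. These had 5 Nlrp3WT and 0 Nlrp3KO cells at 9 months and could not be compared. Monocytes had 96.5 CPM in Nlrp3WT and 114 CPM in Nlrp3KO libraries at 9 months (from 11 and 6 cells), against 1076 CPM earlier. T cells had 3.02 CPM and 6.55 CPM, against 64.6 CPM earlier. pDC held 7 UMIs in 9 Nlrp3WT cells and none in 9 Nlrp3KO cells.

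**Figure D3:**
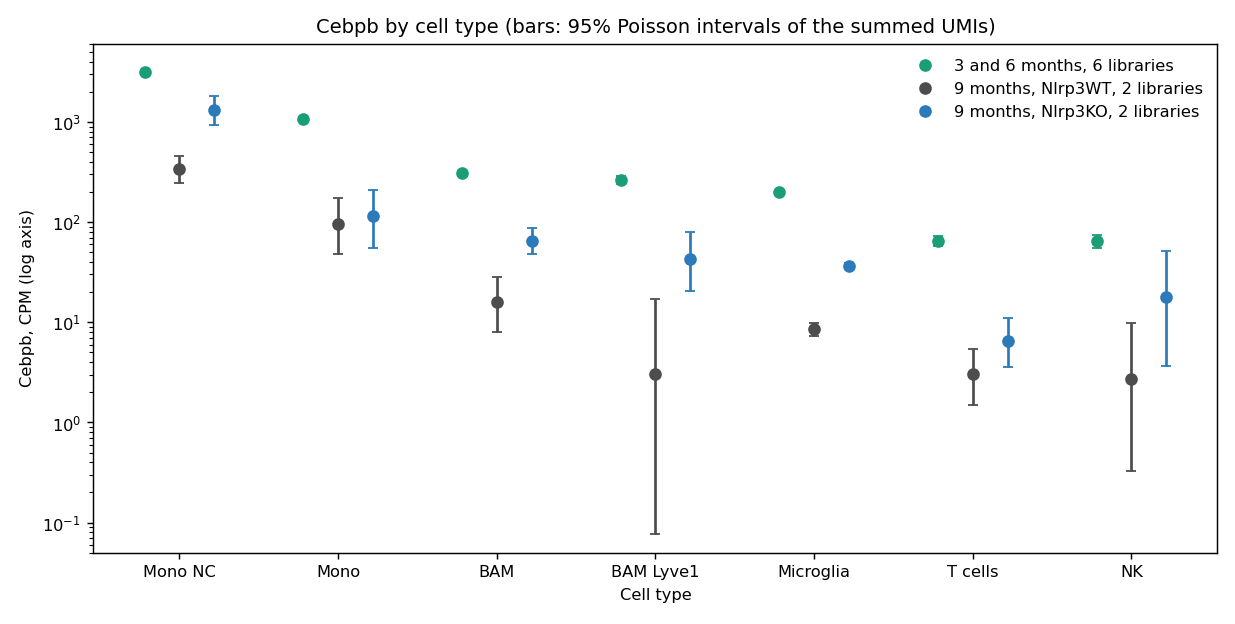
*Cebpb* (CPM, log axis) in 7 cell types, with green points for the 6 libraries of 3 and 6 months summed, grey points for the 2 Nlrp3WT libraries of 9 months and blue points for the 2 Nlrp3KO libraries of 9 months. Bars are 95% exact Poisson intervals of the summed UMIs. In microglia the 3 points lie at 198, 8.49 and 36.2 CPM, and in each of the 7 types both points of 9 months lie below that of 3 and 6 months.

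Next, the Nlrp3 genotype was tested in microglia over all 5 pairs of an Nlrp3KO and an Nlrp3WT library of the same age and background. None of the 9 genes was called by edgeR's quasi-likelihood test (adjusted p under 0.05 and absolute log2 fold change over 1), none had an unadjusted p under 0.05, and DESeq2 called none, whereas edgeR called 0.0242% of the 12383 genes tested. The log2 fold change was 0.03 for *Spi1* (95% interval -0.07 to 0.13), 0.01 for *Irf8* (-0.11 to 0.13), 0.01 for *Runx1* (-0.08 to 0.11), 0.04 for *Mef2a* (-0.06 to 0.13) and -0.02 for *Mef2c* (-0.11 to 0.06). It was -0.03 for *Sall1* (-0.11 to 0.06) and 0.04 for *Sall3* (-0.08 to 0.15). The outermost ends of these 7 intervals were -0.11 (*Irf8*) and 0.15 (*Sall3*).

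*Cebpa* and *Cebpb* had wider intervals, with a log2 fold change of 0.31 (-0.22 to 0.84, adjusted p = 0.906) and 0.65 (-0.13 to 1.42, adjusted p = 0.903). Their pairs differed by age. For *Cebpb* the log2 ratio of Nlrp3KO to Nlrp3WT was 0.13 and -0.02 in the non-diseased and the APP/PS1 pair of 3 months and 0.06 in the pair of 6 months, but 1.85 and 2.36 in the 2 pairs of 9 months. For *Cebpa* it was -0.05, -0.21 and -0.10 in the earlier pairs, in the same order, and 1.56 and 0.44 at 9 months.

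The difference between the Nlrp3 effect at 9 months and at the earlier ages was then tested itself, a comparison chosen with these pair values known, so that its p is no independent support. *Cebpb* was called, with a difference of 2.10 on the log2 scale (SE 0.15, 95% interval 1.76 to 2.44, adjusted p = 0.000781 from edgeR, 4.28-fold), and both pairs of 9 months lay above all 3 earlier pairs. It was 1 of the 50 genes called of 12383 (0.404%), of which 49 were higher. The adjusted p lay between 5.04e-24 and 0.0123 over the alternatives, and the difference between 1.79 and 2.35. The fold compares low levels, since the *Cebpb* level in Nlrp3KO microglia of 9 months (27.3 and 48.5 CPM) was still far below that of any earlier library.

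*Cebpa* had a difference of 1.14 (SE 0.25, 95% interval 0.55 to 1.72) and was not called (adjusted p = 0.119 from edgeR, between 1.24e-06 and 0.383 over the alternatives). Its 2 pairs of 9 months were unlike: the difference was 0.60 without the non-diseased pair of 9 months (adjusted p = 0.0149 from edgeR, below the limit on the fold change) and 1.68 without the APP/PS1 pair of 9 months, where it was called (adjusted p = 1.24e-06). Each of these fits has 1 pair at 9 months and assumes that it varies as the other pairs do. The other 7 genes had differences between -0.08 and 0.06 with adjusted p between 0.792 and 0.982 from edgeR.

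APP/PS1 was compared with the non-diseased background over 4 pairs of the same age and Nlrp3 genotype. None of the 9 genes was called by edgeR or by DESeq2, and none had an unadjusted p under 0.05, against 0.0407% of 12282 genes called by edgeR. *Spi1* had a log2 fold change of -0.10 (95% interval -0.23 to 0.04, lower in 3 of 4 pairs) and *Sall1* of -0.09 (-0.20 to 0.02, lower in 3 of 4 pairs). *Cebpb* had 0.23 (-0.13 to 0.59) and *Cebpa* 0.18 (-0.23 to 0.58), and the other 5 genes lay between -0.01 and 0.04.

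The difference of the amyloid effect between 9 and 3 months was also tested. For *Cebpb* it was 0.76 (SE 0.17, unadjusted p = 0.00386, adjusted p = 0.765 from edgeR), for *Cebpa* 0.52 (SE 0.31, adjusted p = 0.880), which was -0.00061 without the Nlrp3WT pair of 9 months, and for *Spi1* -0.16 (SE 0.11, adjusted p = 0.880). None of the 9 genes was called by edgeR or DESeq2, and *Cebpb* was the one with an unadjusted p under 0.05. Of all 12282 genes, edgeR called 0, or 0%, with 601 (4.89%) at an unadjusted p under 0.05, and DESeq2 called 6. Without the Nlrp3KO pair of 9 months *Cebpa* was called, with a difference of 1.08 (adjusted p = 7.42e-06 from edgeR). Each of these 2 fits has 1 pair at 9 months and assumes that it varies as the other pairs do. The 5 markers of disease-associated microglia moved with this contrast: their sum in microglia was 71.6 CPM in WT, 75.9 CPM in Nlrp3KO, 108 CPM in APP/PS1 and 163 CPM in Nlrp3KO APP/PS1 mice at 3 months, and 113, 74.1, 507 and 811 CPM in the same order at 9 months. Their part in the amyloid values was not tested.

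Among the states of microglia, *Sall1*, *Sall3* and *Cebpa* were lower in DAM than in HM in every library. Disease-associated microglia (DAM) were compared with HM of the same library on the scale of log2(CPM + 1), with 24 to 253 DAM per library. *Sall1* was lower by a mean of 0.53 (SD 0.34, lower in 10 of 10 libraries), with 180 to 385 CPM in DAM and 335 to 431 CPM in HM. *Sall3* fell by 0.48 (SD 0.32, 10 of 10) and *Cebpa* fell by 0.48 (SD 0.36, 10 of 10). *Spi1* was lower in 9 of 10 libraries (mean -0.52, SD 0.38), as was *Mef2a* (mean -0.39, SD 0.38).

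*Irf8* (mean -0.02, SD 0.21, lower in 6 of 10), *Mef2c* (mean -0.13, SD 0.21, 6 of 10) and *Runx1* (mean -0.18, SD 0.35, 7 of 10) differed between DAM and HM by less than the spread between libraries. Thus 3 of the 9 genes were lower in DAM in every library, as were 8.51% of the 8235 genes, and none was higher in every library, against 2.62% of them. The count of 3 was 2 without cells of a doublet score over 0.5 and 5 without the Nlrp3KO library of 3 months (37 DAM). The median over these genes was -0.28, so that all genes tended to be lower in DAM on this scale. With states taken from the annotation of all CD45+ cells, *Sall1* (mean -0.57), *Sall3* (-0.44) and *Mef2a* (-0.51) were lower in 10 of 10 libraries, and *Cebpa* (-0.28) in 8 of 10. There *Mef2c* (-0.29, SD 0.18) was lower in 9 of 10, a mean larger than its SD, and *Cebpb* (-0.26, SD 0.40) in 7 of 10. The reading of *Mef2c* in DAM thus depended on the annotation.

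For *Spi1*, the difference between DAM and HM averaged -0.28 (SD 0.28) in the 6 libraries of 3 and 6 months and -0.88 (SD 0.15) in the 4 libraries of 9 months, where DAM had 216 to 259 CPM and HM 397 to 459 CPM. For *Sall1* the same means were -0.51 (SD 0.41) and -0.57 (SD 0.24). The earlier libraries held 24 to 83 DAM and those of 9 months 55 to 253, and the difference between the ages was not tested. *Cebpb* was lower in DAM than in HM in 9 of 10 libraries, the WT library of 9 months with no UMI included. At 9 months the DAM of WT, Nlrp3KO, APP/PS1 and Nlrp3KO APP/PS1 mice held 0, 5, 12 and 33 UMIs. In WT the 95% exact Poisson interval of DAM reached up to 12.6 CPM, while HM had 7.02 CPM, so no difference was detectable at this depth, and in APP/PS1 the interval of DAM (7.23 CPM, 3.74 to 12.6) held the 8.83 CPM of HM. In Nlrp3KO (9.52 CPM, 3.09 to 22.2, against 27.2 CPM in HM) and Nlrp3KO APP/PS1 (22.4 CPM, 15.4 to 31.4, against 46.6 CPM) the interval of DAM lay below the level of HM.

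In transitory microglia (TM), the SDs were smaller. *Sall1* (mean -0.53, SD 0.09), *Sall3* (-0.39, SD 0.17), *Mef2a* (-0.35, SD 0.08), *Mef2c* (-0.32, SD 0.07), *Spi1* (-0.19, SD 0.07) and *Irf8* (-0.10, SD 0.06) were lower than in HM in 10 of 10 libraries, 6 of the 9 genes against 27.1% of the 8235 genes. The median over all these genes was -0.22, and *Spi1* and *Irf8* were lower by less than that. The numbers of cells, 2538 TM and 901 DAM in all, also differed.

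**Figure D4:**
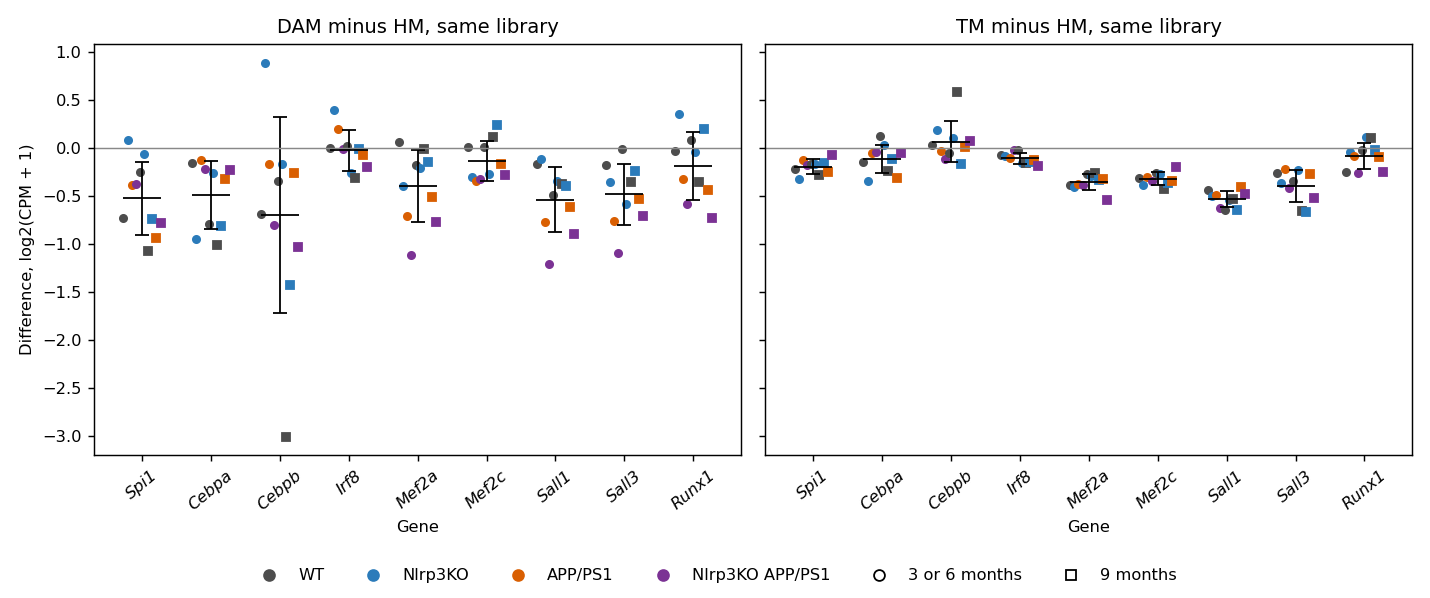
Difference of each gene between DAM and HM (left) and between TM and HM (right) of the same library, in log2(CPM + 1), with 1 point per library coloured by genotype, round for 3 or 6 months and square for 9 months. Black bars give the mean and SD over 10 libraries. *Sall1* and *Sall3* lie below 0 in all 10 libraries in both panels, and the single *Cebpb* point near -3 in DAM is the WT library of 9 months with 0 UMIs.

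*Cebpb* was the one gene of the 9 that was higher in another state than in HM in every library. In interferon-response microglia (IRM) it was above HM in 10 of 10 libraries by a mean of 0.53 (SD 0.12), as were 5.08% of the 8235 genes, and in microglia with an immediate-early gene signature (IEG) in 10 of 10 libraries by 0.47 (SD 0.14), as were 7.71%. The study describes the IEG signature as a response known to follow dissociation of the tissue, so differences in IEG may reflect handling of the cells. At 9 months the interval of IRM held the HM level in WT (9.94 CPM, 95% exact Poisson interval 4.29 to 19.6, 8 UMIs) and APP/PS1 mice (14.5 CPM, 7.74 to 24.9), and lay above it in Nlrp3KO (43.4 CPM, 27.5 to 65.1) and Nlrp3KO APP/PS1 mice (73.1 CPM, 56.3 to 93.4). The same was so in IEG, with 10.2 CPM from 5 UMIs in WT (3.32 to 23.9), 10.5 CPM in APP/PS1 (5.25 to 18.8), 44.2 CPM in Nlrp3KO (28.9 to 64.8) and 64.6 CPM in Nlrp3KO APP/PS1 mice (49.9 to 82.3). In the WT and APP/PS1 libraries of 9 months a difference from HM was thus not detectable at this depth. HM had intervals of its own, 24.0 to 30.6 CPM in Nlrp3KO and 40.5 to 53.4 CPM in Nlrp3KO APP/PS1 mice. The interval of IRM in Nlrp3KO APP/PS1 mice lay clear of that of HM. Those of IRM in Nlrp3KO mice and of IEG in both groups overlapped it. In IRM, *Sall1* (mean -0.26, SD 0.13), *Cebpa* (-0.19, SD 0.14) and *Mef2a* (-0.16, SD 0.09) were below HM in 10 of 10 libraries, 3 of the 9 against 7.83% of all genes. In IEG, *Sall1* (mean -0.58, SD 0.21), *Sall3* (-0.39, SD 0.21), *Mef2a* (-0.37, SD 0.13) and *Mef2c* (-0.21, SD 0.06) were below HM in 10 of 10 libraries, 4 of the 9 against 14.9% of all genes. In proliferating microglia (PM), *Cebpa* was lower in 10 of 10 libraries (mean -0.69, SD 0.29), with 140 CPM against 231 CPM in HM, as was *Mef2a* (-0.33, SD 0.18), 2 of the 9 against 6.18% of all genes. States are clusters of the same cells, so these differences describe them and were not tested.

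*Cebpa* and *Cebpb* share a feature of their genes that the choice of the 9 did not use. In GENCODE M21 (build GRCm38, mm10), both consist of 1 exon, on chromosome 7 from 35119293 to 35121928 and on chromosome 2 from 167688915 to 167690418, both on the plus strand. The other 7 have between 4 and 12 exons. G and C make up 71.9% of the coding bases of *Cebpa* and 73.4% of those of *Cebpb*, more than in 99.6% and 99.8% of 21877 genes. In the other 7 the share lies between 50.6% (*Mef2c*) and 63.5% (*Runx1*). In the last 500 bases of the transcript, close to where reads of a 3′ library start, it is 49.6% in *Cebpa* and 53.2% in *Cebpb*.

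To show what such a coding sequence looks like, the 120 coding bases with the most G and C were read from the GENCODE genes for *Cebpb* (chr2:167689354-167689473, plus strand, 83.3% G or C), *Cebpa* (chr7:35119688-35119807, plus strand, 83.3%) and, for contrast, *Mef2a* (chr7:67234968-67235087, minus strand, 66.7%), each within 1 exon. Capitals mark runs of at least 6 bases that are all G or C, which cover 85 bases in *Cebpb*, 87 in *Cebpa* and 14 in *Mef2a*. The sequences run 5′ to 3′ in the direction of the gene.
Cebpb: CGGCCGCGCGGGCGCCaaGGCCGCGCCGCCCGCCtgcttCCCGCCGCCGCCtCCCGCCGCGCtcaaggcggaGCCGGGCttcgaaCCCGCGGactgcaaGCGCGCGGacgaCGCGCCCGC
Cebpa: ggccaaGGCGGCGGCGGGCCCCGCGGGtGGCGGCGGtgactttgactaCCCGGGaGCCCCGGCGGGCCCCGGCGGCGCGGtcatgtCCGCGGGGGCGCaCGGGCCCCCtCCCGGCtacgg
Mef2a: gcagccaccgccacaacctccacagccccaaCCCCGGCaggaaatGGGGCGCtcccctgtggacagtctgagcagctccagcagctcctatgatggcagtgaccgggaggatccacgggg

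In the WT library of 9 months, the genes with the most G and C in the coding sequence had a lower median than other genes. Of the 8235 genes, 8027 (97.5%) had a protein-coding transcript, and 30 of these, *Cebpa* and *Cebpb* included, had at least 70% G and C in the coding sequence. Their median log2 difference between the WT libraries of 9 and 3 months was -1.80, and all 30 were lower, as were 61.0% of the 8027 genes, while the 7268 genes under 60% had a median of -0.06. Between 6 and 3 months the WT libraries had a median of -0.07 for the same 30 genes.

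The size of this difference varied with the library. The median of the 30 genes between 9 and 3 months was -0.72 in APP/PS1 mice, against -0.11 for the genes under 60%, and 28 of the 30 were lower, as were 68.6% of the 8027 genes. In Nlrp3KO APP/PS1 mice it was -0.39, against -0.17, with all 30 lower and 75.6% of the 8027. In Nlrp3KO mice it was -0.24, against -0.06, with 26 of the 30 lower and 64.4% of the 8027. Between Nlrp3KO and WT mice of 9 months it was 0.93, against 0.00 for the genes under 60%, and between Nlrp3KO APP/PS1 and APP/PS1 mice of 9 months it was 0.12, against -0.03. In that second pair *Cebpb* differed by 2.25 on the same scale, and *Cebpa* by 0.44. The 86 genes of 1 exon with under 60% had a median of -0.08 between the WT libraries, and the 11 genes of several exons with at least 70% had -1.24. The part of the G and C content in the *Cebpa* and *Cebpb* values was not tested.

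**Figure D5:**
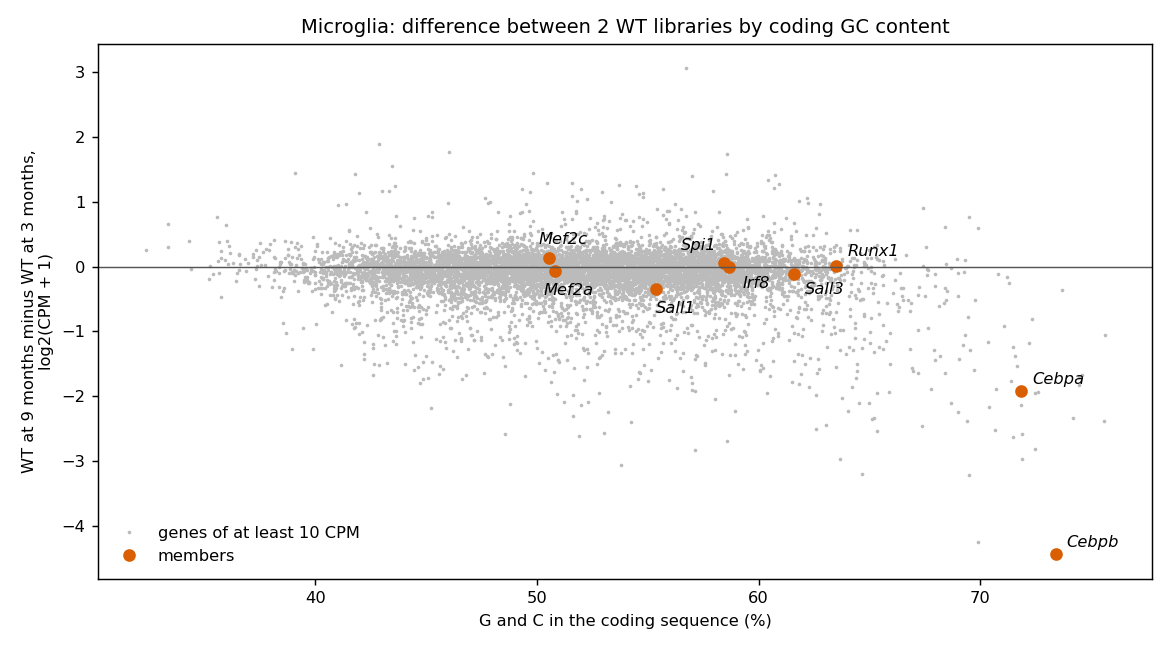
Log2(CPM + 1) of WT microglia at 9 months minus that at 3 months (y axis, 1 library each) against the share of G and C in the coding sequence (x axis, percent) for 8027 genes of at least 10 CPM (grey) and the 9 genes (orange, named). *Cebpb* (73.4%, -4.45) and *Cebpa* (71.9%, -1.92) lie at the lower right, and the other 7 genes lie between -0.35 and 0.13.

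Related genes were read from 3 lists. Of 21 relatives of the 9 genes, 15 were tested for the Nlrp3 effect, of 48 other transcription factors of macrophages and microglia 45 were, and all 18 microglial genes known as targets or readouts of these factors were. None of them was called for the Nlrp3 effect by edgeR or DESeq2, with 3 at an unadjusted p under 0.05 by edgeR, as had 4.64% of all 12383 genes. The medians of the log2 fold change were -0.01, 0.00 and 0.02 in the order of the lists, and 0.01 over all genes. The lowest and highest values were -0.12 (*Irf4*) and 0.81 (*Runx3*) among the relatives, -0.21 (*Nr1h3*) and 0.54 (*Jund*) among the other factors, and -0.07 (*Tgfbr1*) and 0.05 (*Tyrobp*) among the targets.

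For the amyloid effect, the other factors had a median of 0.10, the relatives of 0.00 and the targets of 0.01, against 0.00 over all genes. edgeR called none of them. Its unadjusted p was under 0.05 for 2 of 15 relatives, 10 of 44 other factors and 0 of 18 targets, against 7.47% of all 12282 genes. *Bhlhe40*, a basic helix-loop-helix factor of activated macrophages, had 2.32 (SE 0.33, adjusted p = 0.123 from edgeR) and was called by DESeq2 (2.34, adjusted p = 0.000531), as were 22 genes in all (0.179%). *Nr4a1*, an early response gene, had 1.20 (SE 0.23, adjusted p = 0.257 from edgeR).

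Of the 67 genes of these lists with at least 10 CPM, 3 had at least 70% G and C in the coding sequence, and all 3 were lowest in the WT library of 9 months, as were 11 of the other 64 and 15.6% of the 8235 genes. *Cebpd*, a relative of *Cebpb* with 70.4% G and C, had 159 to 193 CPM in the 6 earlier libraries and 39.0 CPM in WT, 175 CPM in Nlrp3KO, 150 CPM in APP/PS1 and 146 CPM in Nlrp3KO APP/PS1 microglia of 9 months. *Jund* (70.7%) had 194 to 280 CPM earlier and 32.8, 213, 128 and 182 CPM at 9 months, and *Klf2* (70.7%) had 30.8 to 52.3 CPM earlier and 7.67, 59.5, 23.1 and 30.2 CPM. The Nlrp3KO library of 9 months lay within the earlier range for *Cebpd* and *Jund* and above it for *Klf2*. The 3 genes were chosen after their values were seen.

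Of the genes with at least 10 CPM, the libraries of 9 months lay below all earlier ones for 3 of 12 relatives, 4 of 37 other factors and 1 of 18 targets, and above them for none, 1 and 1, against 13.2% and 3.16% of all 8235 genes. In the test of the Nlrp3 effect at 9 months against the earlier ages, none of the 3 lists had a gene called by edgeR or DESeq2, with 7 at an unadjusted p under 0.05 by edgeR, as had 11.5% of all 12383 genes. The highest values were 1.85 (*Tfec*) and 1.78 (*Klf2*) among the other factors and 0.96 (*Cebpd*) among the relatives, and the lowest -0.43 (*Irf7*).

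In DAM, 4 of 12 relatives, 7 of 37 other factors and 2 of 18 targets were below HM in every library, and none, 3 and 1 were above, against 8.51% and 2.62% of all 8235 genes, whose median was -0.28. *Rxra*, a nuclear receptor gene, had the lowest mean (-1.42) and *Irf7*, an interferon-induced relative of *Irf8*, the highest (1.62). Both genes were low in microglia as a whole, with 25.1 to 28.5 CPM of *Rxra* and 6.06 to 14.5 CPM of *Irf7* in the earlier libraries. With 24 DAM in the smallest library, such means can rest on few UMIs and on the pseudocount of 1 CPM. *Tyrobp*, the adaptor of TREM2, had 0.61.

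Finally, the genes whose pattern was most like that of each of the 9 were listed by Pearson's r of log2(CPM + 1), as a description, since the points share libraries, batches and depth. Over the 10 libraries in microglia, *Sall1* went with *P2ry12* (r = 0.991), *Ppil2* (0.986) and *Vsir* (0.983). *Cebpb* went with *Ube2m* (0.996), *Ccdc71l* (0.993) and *Kcmf1* (0.990), and *Cebpa* with *Ap1ar* (0.993) and *Rnf126* (0.985). *Spi1* went with *Vdac2* (0.985), *Ssna1* and *Tnfaip8l2*, and *Mef2c* with *Trip4* (0.966), *Tbrg1* and *Ankrd49*.

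The genes with less variation between libraries had lower values. *Irf8* went with *Plgrkt* (0.897), *Faap100* and *Taf1*, *Mef2a* with *Creb1* (0.919), *Pard3b* and *Utp18*, *Runx1* with *Dnajc13* (0.913), *Cdk11b* and *Riok1*, and *Sall3* with *Sfxn1* (0.945), *Fam76a* and *Arfgap3*.

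Over the 13 cell types, *Sall1* went with *Ecscr* (r = 0.990), *Nav3* (0.987) and *Sparc* (0.983), and *Sall3* with *Slc2a5* (0.98), a fructose transporter gene of microglia, *Ecscr* and *Csmd3*. *Spi1* went with *Nfam1* (0.973), and *Cebpa* with *Slc35f5* (0.978), *Tmem141* and *Aif1*, the gene of the microglial protein Iba1. *Cebpb* went with *Zfyve9* (0.964), *Rab5c* and *Ndel1*, *Irf8* with *Arhgap17* (0.940), *Armcx3* and *Bmt2*, *Mef2a* with *Tmem19* (0.957), *P4ha1* and *Fbxw11*, *Mef2c* with *Fgd2* (0.956), *Vav2* and *Rnf216*, and *Runx1* with *Stxbp3* (0.940), *Zfp703* and *Ctns*.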

How the data were processed

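What the authors deposited is a matrix of raw counts, the UMIs (unique molecular identifiers) of each gene in each cell. They deposited beside it 1 annotation of all CD45+ cells and 1 of the microglia, with a doublet score per cell. Per the study's methods, reads were mapped to mm10 with STAR in Cell Ranger, Scater served to drop outlier cells, and clusters came from Seurat after harmony. The UMIs of the microglia were summed by library (9357431 to 35107144 UMIs), since cells are not replicates. Each group is 1 pool, so p-values measure the spread between pairs of libraries. Sums were filtered with filterByExpr, scaled by TMM and tested with edgeR 4.0.16 (quasi-likelihood, pair as a block, Benjamini-Hochberg adjustment over all genes). A call needed an absolute log2 fold change over 1 beside an adjusted p under 0.05. Residual degrees of freedom were 4 (Nlrp3), 3 (amyloid), 3 and 2 (differences between ages).

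The microglia are those of their own annotation, and other cells carry the types of the annotation of all cells. Levels are CPM of summed UMIs, with a minimum of 20 cells per library and group and a pseudocount of 1 CPM on the log2 scale. Poisson intervals (95%) and the limit of 3 counts cover counting error only. No doublet caller was run, and 7.63% of microglia had a score over 0.5. Coding sequences are the longest protein-coding transcripts of GENCODE M21. Alternatives were DESeq2 1.42.0, DESeq2 size factors, no filter, HM alone, additive covariates, the adjusted p alone, the other annotation, the mean over libraries, and leaving out pairs or libraries. Tests without cells of a doublet score over 0.5 were added after seeing the data. In simulated counts, 200 well-expressed genes carried a true log2 fold change of 2, of which 99% or 100% were called per comparison. Up to 2.46% of the calls were false. The simulation used the same dispersion for every gene and no differences between pairs, ages or batches. Its shares therefore do not carry over to the tests of the real data. The 9 genes are all named, with up to 3 genes most like each in pattern (some are not reported here), and from 3 lists the genes that passed a test and those at the ends. Members and lists were chosen with earlier results of these data known. The 6897 cells of the matrix under 2 further sample names, for which the labels gave no group, were left out.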

Additional observations from a re-analysis of the deposited data

Results flagged for a closer look

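For *Cebpb* in microglia, the log2 ratio of Nlrp3KO to Nlrp3WT was higher by 2.10 in the pairs of 9 months than in the earlier pairs. The difference itself was tested (SE 0.15, adjusted p = 0.000781 from edgeR), with 2 pairs of 9 months and 3 pairs of 3 and 6 months. This test was chosen with the values of the pairs known. The low *Cebpb* level in the Nlrp3WT libraries of 9 months was also known when the genes were chosen. The p is thus no independent support. The values behind the difference are 7.58 and 9.43 CPM in the Nlrp3WT libraries of 9 months, 27.3 and 48.5 CPM in the Nlrp3KO libraries of 9 months, and 186 to 220 CPM in the 6 earlier libraries. The 9-month libraries form a batch of their own. No group has 4 or more samples, so single libraries could not be compared with others of their group.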

How the results depend on the processing

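Of 396 combinations of a gene, a comparison and an alternative, 28 had another sign than the value reported, none of them called, with at most 0.13 on the log2 scale under the alternative. The largest reported value among them was 0.52, the difference of the amyloid effect for *Cebpa*, which was -0.00061 without the Nlrp3WT pair of 9 months. The call of *Cebpb* for the difference of the Nlrp3 effect at 9 months held under all 11 alternatives. All of them use the same libraries, and the comparison was chosen with the pair values known, so this is no independent support. Leaving out a pair moved the number of the 9 genes called between 1 and 2 for that difference, where *Cebpa* was added without the APP/PS1 pair of 9 months (1.68), and between 0 and 1 for the difference of the amyloid effect, where *Cebpa* was called without the Nlrp3KO pair of 9 months (1.08). These fits rest on 1 pair at 9 months. None of the 9 genes was called for the Nlrp3 or the amyloid effect under any of the alternatives run. The number of genes highest in microglia stayed at 6. The number of cell types with less *Cebpb* at 9 months was 12 to 13 when a library was left out, the 12 without the Nlrp3KO APP/PS1 library of 3 months, an alternative chosen after seeing the data. The number lower in DAM than in HM in every library was 2 without cells of a doublet score over 0.5, and between 3 and 5 when a library was left out, with the 5 reached without the Nlrp3KO library of 3 months (37 DAM). The pairs are the blocks of the fits, and with 1 library per group no other pairing was possible. For the Nlrp3 effect, *Cebpa* had 0.02 without the non-diseased pair of 9 months.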
